A study of Mus musculus with 18 samples.

Results

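The genes described here copy DNA, supply its building blocks or open the way into S phase. They are 38 named genes of DNA synthesis, nucleotide supply and the G1/S transition, chosen by symbol from a table of 32699 mouse gene symbols. The list leaves out the subunits of the replicative helicase, which are given only for comparison. Of the 38, 28 had enough counts to be tested among 12145 tested genes.

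The cells were PyMT-BO1, mouse breast cancer cells of luminal B-like type from the C57BL/6 background, and every group carried a knockout of integrin β3, an adhesion receptor. Into the knockout cells a retrovirus had brought the empty vector pMx, functional human integrin β3 (hβ3) or a signalling-deficient integrin β3 (Δβ3). Each of these 3 lines was given DMSO, the solvent, or 10 nM docetaxel, a taxane that stabilises microtubules, for 24 h before harvest, with 3 biological replicates, called cultures here, in each of the 6 groups. Each construct is represented by 1 line, so p-values rest on how much cultures of a line vary, and a difference between 2 lines may come from any feature in which they differ. The series asks how integrin β3 bears on the response to docetaxel in culture.

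DNA is copied in steps that these genes serve in turn. Before S phase, ORC, CDC6 and CDT1 load the helicase onto origins, and MCM10 helps to start it. DNA polymerase α with primase then lays down primers, the clamp loader RFC places the sliding clamp PCNA, and polymerases δ and ε extend the strands while RPA covers single-stranded DNA. Ribonucleotide reductase supplies deoxynucleotides, chromatin assembly factors put nucleosomes behind the fork, and cyclin E and the E2F transcription factors, which act on the genes of many of these proteins, drive the step from G1 to S phase.

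Levels are counts per 1e6 after TMM scaling of library sizes (CPM), and libraries held 7.97 to 18.96 times 1e6 counts. Itgb3, the mouse gene of integrin β3, had 0.322 to 1.30 CPM in pMx, 32.9 to 114 in Δβ3 and 72.2 to 131 in hβ3. The low Δβ3 values were 32.9 in docetaxel culture 2 and 66.6 in DMSO culture 1, and the other Δβ3 cultures had 108 to 114. Reads of a human construct count only where they align to the mouse gene. Of 14 listed luminal markers 4 were tested, Krt8, Krt18, Krt7 and Cdh1. Krt8 and Krt18 had medians of 1393 and 1025 CPM, but Krt7 and Cdh1 only 0.849 and 1.08. The others reached at most 0.95 CPM (Foxa1), and Pgr and Gata3 were at 0 in every library. A pair of libraries stood apart by the summed level of 29 heart muscle markers. It was 55779 CPM in Δβ3 docetaxel culture 2 and 6686 in Δβ3 DMSO culture 1, against 219.6 to 2812 in the other 16. Of the 29, 21 were tested and 2, Nppb and Smpx, were at 0 throughout. Tnnt2, Myl7, Mb, Casq2, Csrp3 and Ldb3 reached at most 2.80 CPM in any library. The same 2 libraries had the highest summed levels of basal, fibroblast, leukocyte and endothelial markers. Heart muscle was not their only oddity within Δβ3. The ribosomal precursor transcript Rn45s made up 41.5% of Δβ3 DMSO culture 1, the largest share of any library. Its share was 23.6% for Δβ3 docetaxel culture 2, while the other Δβ3 libraries held 6.92% to 10.0%. The hβ3 libraries ranged from 10.9% to 33.0%. Δβ3 docetaxel culture 2 had the lowest sum of luminal markers, at 1193 CPM against 1982 to 3418. The basal sum reached 147 CPM, with Acta2 at up to 145, and the leukocyte sum 214, with Lyz2 at up to 174. The other basal markers reached at most 2.18 CPM. Ptprc, Adgre1, Csf1r, Cd3e and Cd79a reached at most 2.80 CPM, while Cd14 reached 52.4 and Cd68 9.58. The biological coefficient of variation was 36.1% with all 18 libraries and 13.2% with the 16, so counts of called genes are given for both. Changes of single genes are from all 18 libraries unless the 16 are named, and for the 28 the value with 16 is added where the call differed or the mean change moved by over 1.5 times. The part of the marker transcripts in the results was not tested, and that of Rn45s only by a fit with Rn45s left out.

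How many counts a gene received differed widely across the 38 (plot of counts per gene). The 7 genes that the table lists with 1 transcript model, Prim1, Pcna, Rfc2, Rpa3, Rrm1, Rrm2 and Ccne1, were all tested, with 9194 to 136468 counts over the 18 libraries and a median of 33765. Of the 31 genes with several models 21 were tested, and their median over all 31 was 616 counts. Orc1 and Orc6, subunits of the origin recognition complex, Fen1, a flap nuclease for Okazaki fragments, and Uhrf1, which maintains DNA methylation, had 0 counts in every library. Rfc4, Rpa1, Lig1, Timeless, Tyms and Slbp had at most 85 counts in total and were not tested. How reads that fit several models of a gene were counted is not stated in the sources used here, so few counts do not show that a gene was silent.

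**Figure D1:**
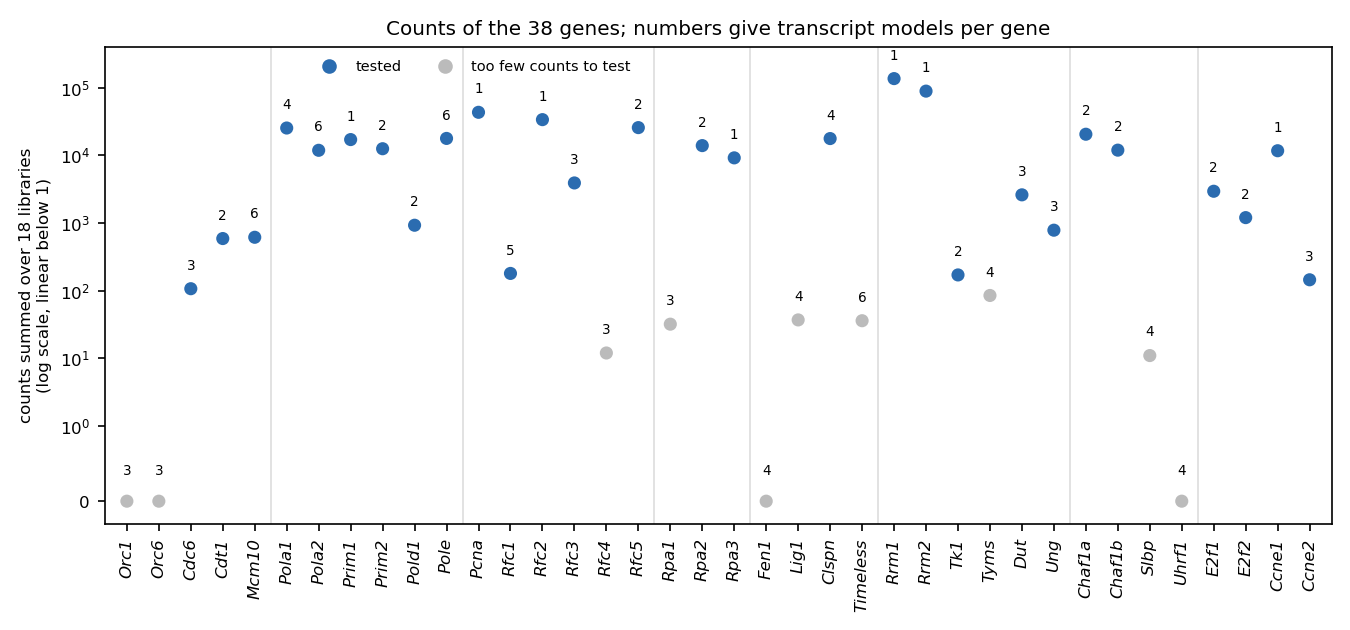
Counts summed over the 18 libraries (log scale, linear below 1) for each of the 38 genes, in the order of their roles, with the number of transcript models above each point. Blue genes were tested and grey genes were not; all 7 genes with 1 model were tested, and 4 genes lie at 0.

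Docetaxel lowered most of the tested genes. As the mean response of the 3 lines, 22 of 28 fell and 0 rose at an adjusted p under 0.05 (edgeR's quasi-likelihood test with Benjamini-Hochberg adjustment over all genes), where 7.67% of all tested genes fell and 7.9% rose. The median log2 change of the 28 was -0.59, against 0.06 over all tested genes. With the 16 libraries 24 fell, all 22 among them, where 14.3% of all genes fell, and the median was -0.55. Leaving out any single library ended none of the 22 calls. In RNA from whole cultures, fewer cells in S phase and less RNA per cell cannot be told apart.

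Among the genes of origin licensing and helicase activation, 1 of the 3 tested fell. Neither Cdc6 nor Cdt1, which load the helicase, was called. Mcm10 (chromosome 2, 4989714 to 5012791, minus strand, mm10), a helper of helicase activation, read 2.68, 2.74 and 4.96 CPM in the 3 pMx DMSO cultures and 0.847, 1.496 and 1.55 in docetaxel. In Δβ3 it had 2.27, 2.79 and 2.51 CPM in DMSO and 1.62, 1.40 and 2.60 in docetaxel. The hβ3 cultures gave 4.43, 4.28 and 2.63 CPM and 1.97, 2.49 and 2.02 CPM for Mcm10 in the same order. Docetaxel cultures were all below DMSO cultures in pMx and hβ3 and overlapped them in Δβ3. Its mean log2 change was -0.87 ± 0.20 (SE; adjusted p = 0.00566). Cdt1, a licensing factor for the helicase, showed no separation in any line. Its levels in pMx were 1.38, 3.31 and 2.90 CPM in DMSO and 1.48, 2.24 and 2.48 in docetaxel. For Δβ3 the Cdt1 values were 4.34, 2.25 and 2.77 CPM without and 1.37, 1.55 and 2.33 with docetaxel. For hβ3 the Cdt1 values were 1.94, 2.91 and 3.26 and 3.06, 2.42 and 2.19 CPM. The ranges overlapped in all 3 lines, and the mean change was -0.40 ± 0.21 (adjusted p = 0.238), or -0.26 with the 16 libraries. Cdc6, which loads the helicase with CDT1, had 107 counts in all and a mean change of -0.54 ± 0.55 (adjusted p = 0.568).

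All 6 genes of the polymerases and primase fell. Pola2 (chromosome 19, 5940542 to 5964202, minus strand), the regulatory B subunit of polymerase α, read 55.1, 54.3 and 58.3 CPM in pMx DMSO and 30.6, 34.9 and 36.7 in pMx docetaxel. In Δβ3 Pola2 had 40.6, 54.7 and 57.2 CPM and then 37.3, 25.3 and 38.1. In hβ3 Pola2 had 65.8, 71.0 and 63.8 CPM and then 54.3, 52.0 and 52.3. The docetaxel cultures lay below the DMSO cultures in every line, closest in Δβ3, and hβ3 docetaxel cultures were above all other docetaxel cultures. The mean change was -0.55 ± 0.09 (adjusted p = 0.000605). Prim2 (chromosome 1, 33453810 to 33669795, minus strand), the large primase subunit, changed by -0.56 ± 0.11 (adjusted p = 0.00152). Its pMx cultures had 54.6, 63.8 and 65.9 CPM in DMSO and 35.5, 39.2 and 42.7 in docetaxel, and its Δβ3 cultures 61.2, 65.3 and 64.4 and 40.8, 23.8 and 43.4. Its hβ3 cultures had 58.5, 67.2 and 53.4 CPM in DMSO and 48.2, 58.3 and 47.9 in docetaxel, and these overlapped, while those of pMx and Δβ3 did not. The other 4 were Prim1, the catalytic primase subunit, at -0.69, Pold1, the catalytic subunit of polymerase δ, at -0.67, Pola1, that of polymerase α, at -0.49, and Pole, that of polymerase ε, at -0.48.

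Of the sliding clamp and its loader, 4 of 5 tested genes fell. Pcna (chromosome 2, 132249162 to 132253314, minus strand), the clamp that tethers polymerases to DNA, read 231, 242 and 228 CPM in pMx DMSO and 118, 134 and 128 in pMx docetaxel. In Δβ3 the Pcna levels were 179, 257 and 228 CPM and 151, 93.9 and 139 CPM. In hβ3 they were 191, 225 and 184 CPM and 163, 189.7 and 152 CPM. DMSO and docetaxel cultures were separate in pMx and Δβ3 and overlapped in hβ3, where culture 2 was highest in both treatments. Over the 3 lines the change was -0.64 ± 0.10 (adjusted p = 0.000227). Rfc2 (chromosome 5, 134581366 to 134601805, plus strand), a clamp loader subunit, had a mean change of -0.50 ± 0.07 (adjusted p = 0.000133). It read 158, 157 and 173 CPM in pMx DMSO and 106, 112 and 103 in pMx docetaxel, and in hβ3 167, 163 and 158 and 137, 144 and 125. In Δβ3 the Rfc2 levels were 145, 193 and 169.7 CPM in DMSO and 122, 95.3 and 113 in docetaxel, so that the treatments were separate in all 3 lines. Rfc5 and Rfc3, further loader subunits, changed by -0.56 and -0.58. Rfc1, the large loader subunit, had 180 counts in all and a change of 0.04 ± 0.46 (adjusted p = 0.964), which was -0.08 with the 16 libraries.

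Replication protein A, which coats single-stranded DNA, has 3 subunits, of which Rpa2 and Rpa3 were tested and Rpa2 fell. Rpa2 (chromosome 4, 132768332 to 132778752, plus strand) read 68.5, 63.4 and 69.4 CPM in pMx DMSO and 33.5, 43.5 and 36.6 in pMx docetaxel. In Δβ3 Rpa2 had 74.4, 74.9 and 70.9 CPM and then 46.5, 50.0 and 43.0, and in hβ3 75.4, 63.5 and 68.5 and then 54.7, 63.6 and 60.4. The treatments were separate in pMx and Δβ3 and met in hβ3, where the highest docetaxel culture was just above the lowest DMSO culture. Its mean change was -0.57 ± 0.07 (adjusted p = 4.83e-05). Rpa3 had 42.1, 49.1 and 53.6 CPM in pMx DMSO and 19.8, 37.8 and 32.9 in pMx docetaxel. Its Δβ3 cultures read 35.8, 57.8 and 45.4 and 41.0, 21.8 and 40.6 CPM, and its hβ3 cultures 38.03, 34.8 and 31.4 and 31.4, 41.0 and 31.0 CPM. Its treatments were separate in pMx alone. The mean change was -0.37 ± 0.15 (adjusted p = 0.105), and -0.33 ± 0.12 (adjusted p = 0.048) with the 16 libraries.

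Clspn (chromosome 4, 126556935 to 126593903, plus strand) encodes claspin, which travels with the fork and passes the checkpoint signal from ATR to CHK1, and it was the only gene of Okazaki fragments and fork protection that could be tested. It read 96.2, 89.9 and 87.5 CPM in pMx DMSO and 47.4, 51.8 and 52.1 in pMx docetaxel. In Δβ3 Clspn had 118, 83.7 and 90.7 CPM and then 58.9, 38.2 and 46.8. In hβ3 it had 87.8, 98.6 and 86.8 CPM and then 63.7, 66.8 and 67.8. Every docetaxel culture was below every DMSO culture of the 3 lines, and the 3 hβ3 docetaxel cultures were the highest of the docetaxel cultures. As a mean of the lines it changed by -0.78 ± 0.09 (adjusted p = 1.87e-05).

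Of the genes of nucleotide supply and uracil removal, 4 of 5 tested fell. Rrm2 (chromosome 12, 24708241 to 24714146, plus strand), the small subunit of ribonucleotide reductase that is made in S phase, read 386, 406 and 419.8 CPM in pMx DMSO and 228, 221 and 214 in pMx docetaxel. In Δβ3 Rrm2 had 368, 454 and 416 CPM and then 251, 154 and 241. In hβ3 Rrm2 had 490.0, 593 and 526 CPM and then 421, 436 and 384. The treatments were separate in all 3 lines, and hβ3 cultures were above those of both other lines within each treatment. The mean change was -0.73 ± 0.09 (adjusted p = 3.13e-05). Rrm1 (chromosome 7, 102441695 to 102469771, plus strand), the large subunit, changed by -0.58 ± 0.10 (adjusted p = 0.00049). Its levels were 742, 698 and 688 CPM in pMx DMSO and 460.2, 469 and 459 in pMx docetaxel, and 541, 676 and 676 and 486, 269.9 and 430.4 in Δβ3. The hβ3 cultures had 630.5, 746 and 685 CPM of Rrm1 in DMSO and 498, 529 and 481 in docetaxel, again without overlap.

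The remaining nucleotide genes had fewer counts, and their values moved with the 2 libraries that stood apart. Dut, which breaks down dUTP so that uracil stays out of DNA, read 41.7, 12.6 and 12.5 CPM in Δβ3 DMSO and 9.54, 8.39 and 10.1 in Δβ3 docetaxel. In pMx Dut had 13.2, 11.9 and 9.93 CPM and then 7.09, 9.91 and 6.70, and in hβ3 9.84, 9.73 and 10.5 and then 8.38, 6.77 and 8.07. Δβ3 DMSO culture 1 was far above every other culture, and the docetaxel cultures lay below the DMSO cultures in each line, by a small margin in pMx. Its mean change was -0.73 ± 0.20 (adjusted p = 0.0211), and -0.42 ± 0.10 (adjusted p = 0.00211) with the 16 libraries. Ung, the enzyme that cuts uracil out of DNA, was chosen after its values were seen. It changed by -1.27 ± 0.29 (adjusted p = 0.00546) and by -0.84 ± 0.18 with the 16 libraries, and Δβ3 DMSO culture 1 was again its highest culture, at 14.4 CPM against 3.57 and 4.07 in the other Δβ3 DMSO cultures. Tk1, which salvages thymidine, had 171 counts in all and was chosen in the same way. In Δβ3 docetaxel it read 0.0624, 3.11 and 0.448 CPM, with culture 2 the highest of all 18. Its mean change was -0.60 ± 0.48 (adjusted p = 0.448), and -1.40 ± 0.36 (adjusted p = 0.00417) without the 2 libraries.

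Both tested genes of chromatin copying fell, the large and middle subunits of chromatin assembly factor 1, which deposits histones on new DNA. Chaf1b (chromosome 16, 93883901 to 93906115, plus strand) read 70.3, 66.0 and 71.8 CPM in pMx DMSO and 32.6, 32.2 and 32.1 in pMx docetaxel. In Δβ3 Chaf1b had 49.5, 71.8 and 69.8 CPM and then 37.8, 17.9 and 40.8, and in hβ3 56.0, 67.8 and 50.6 and then 39.9, 44.4 and 38.4. The treatments were separate in every line, and pMx docetaxel cultures lay within a narrow band. Averaged over the lines, the change was -0.86 ± 0.13 (adjusted p = 0.000242). Chaf1a (chromosome 17, 56040439 to 56072289, plus strand) read 98.5, 102 and 95.8 CPM in pMx DMSO and 64.6, 57.3 and 55.1 in pMx docetaxel. In Δβ3 Chaf1a had 138, 108 and 111 CPM and then 68.9, 46.6 and 64.0, and in hβ3 87.7, 114 and 108 and then 76.7, 81.0 and 76.1. Its treatments were separate in every line too, with a mean change of -0.71 ± 0.09 (adjusted p = 3.16e-05). In the GENCODE M21 annotation 52.5% of the exonic bases of Chaf1a are also exonic in Ubxn6 on the other strand, and the strand setting of the counting is not stated in the sources used here. Reads of the pair can therefore not be told apart with certainty, and Ubxn6 itself changed by 0.10 ± 0.08 (adjusted p = 0.444). Rfc2 shares 15.1% of its exonic bases with Lat2, which had 21 counts in all, and Rfc5 shares 10.7% with Wsb2, which changed by -0.31 ± 0.22 (adjusted p = 0.396).

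Of the 4 G1/S regulators 3 fell. Ccne1 (chromosome 7, 38097984 to 38107534, minus strand), cyclin E1, the partner of CDK2 at S phase entry, read 62.9, 70.7 and 66.5 CPM in pMx DMSO and 32.4, 30.4 and 33.7 in pMx docetaxel. In Δβ3 Ccne1 had 54.2, 69.2 and 61.5 CPM and then 33.1, 19.9 and 33.5. In hβ3 Ccne1 had 56.1, 62.4 and 58.0 CPM and then 43.3, 40.1 and 44.1. The treatments were separate in every line, and the hβ3 docetaxel cultures were above all 6 docetaxel cultures of the other lines. The mean change was -0.87 ± 0.10, with the smallest p of the 28 (adjusted p = 1.31e-05). E2f2, an activating E2F factor, changed by -0.80 ± 0.17 (adjusted p = 0.00366). It read 5.19, 5.22 and 6.64 CPM in pMx DMSO and 3.92, 3.83 and 2.58 in pMx docetaxel, 5.40, 6.39 and 5.18 and 5.25, 4.77 and 4.71 in hβ3, and 10.3, 7.99 and 5.54 and 3.80, 1.55 and 3.05 in Δβ3. Its treatments were separate in pMx and Δβ3 and overlapped in hβ3. E2f1, the other activating E2F factor tested, chosen after its values were seen, fell by a log2 change of -0.89 ± 0.21 (adjusted p = 0.00699) and of -0.55 ± 0.10 with the 16 libraries, with 49.4 CPM in Δβ3 DMSO culture 1 and at most 15.3 in any other culture. Ccne2, cyclin E2, had 145 counts in all and a change of -0.57 ± 0.37 (adjusted p = 0.346).

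**Figure D2:**
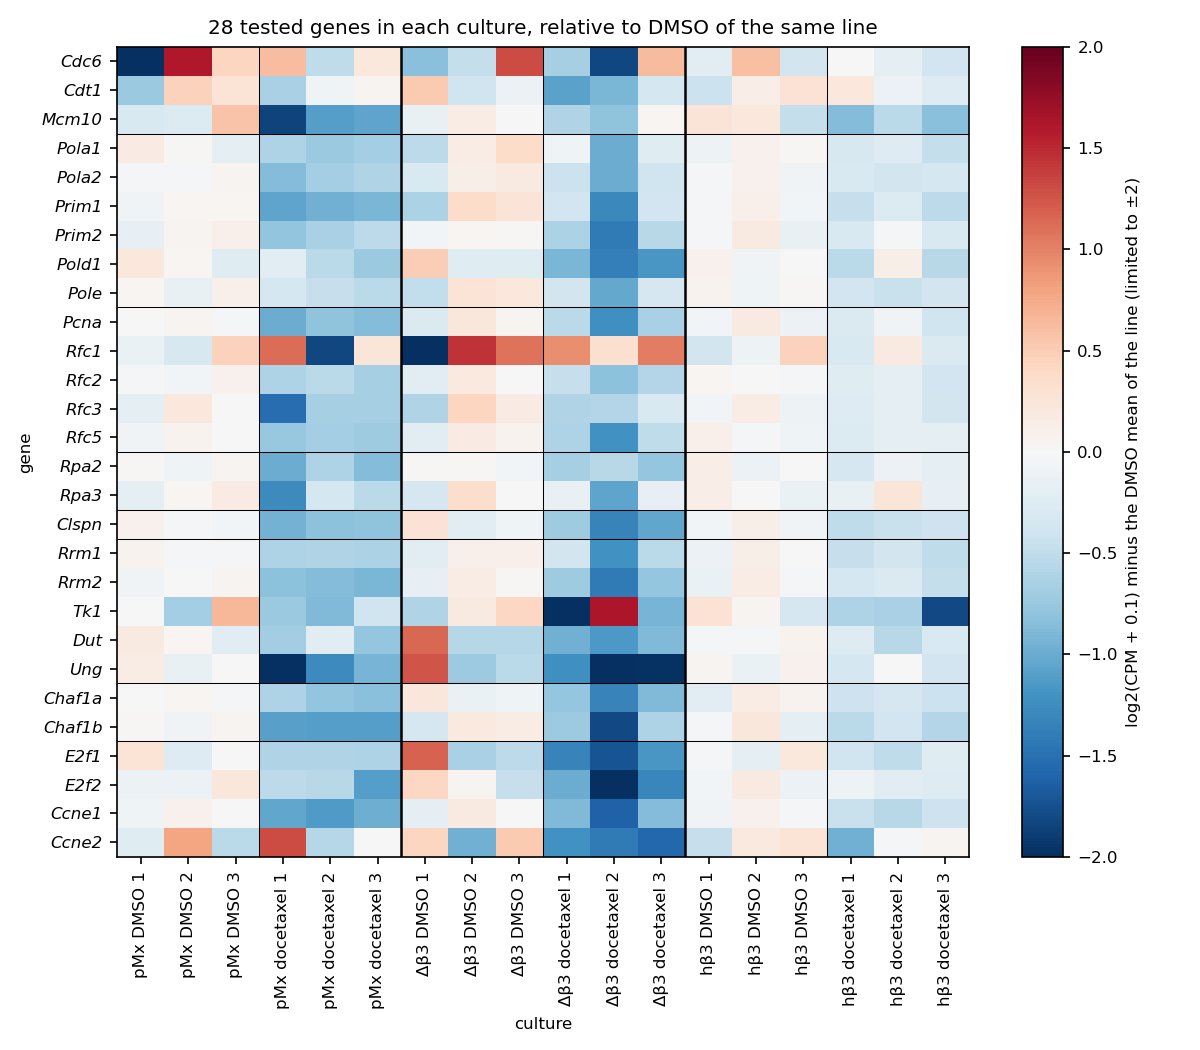
Level of each of the 28 tested genes (rows) in each of the 18 cultures (columns), as log2(CPM + 0.1). The mean of these log2 values over the DMSO cultures of the same line is subtracted, with blue below and red above that mean and colours limited to ±2. Docetaxel columns are mostly blue in pMx and Δβ3, darkest in Δβ3 culture 2, and paler in hβ3, while genes of few counts such as Cdc6, Rfc1, Tk1 and Ccne2 vary most between cultures of a group.

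Taken culture by culture, the median of the 28 genes relative to DMSO of the same line was -0.76, -0.67 and -0.70 on the log2 scale in the 3 pMx docetaxel cultures. It was -0.68, -1.22 and -0.60 in Δβ3 and -0.34, -0.25 and -0.39 in hβ3 (map of levels by culture). Each hβ3 docetaxel culture was thus nearer to its DMSO level than any docetaxel culture of the other lines, and Δβ3 culture 2, the library richest in heart muscle transcripts, was the farthest. The median over all tested genes lay between -0.02 and 0.05 in every culture.

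Line by line, edgeR's test called 13 of 28 lower in pMx, where 1.7% of all tested genes were called lower, and 17 in Δβ3, where 3.53% were. In hβ3 it called 0, where 0.239% of all genes were called lower. There 10 of the 28 had an unadjusted p under 0.05, and DESeq2 called 1. For this and every later count at an unadjusted p, the share of all genes was not counted. None of the 28 was called higher in any line, where 1.92% of all genes were in pMx, 3.33% in Δβ3 and 0.922% in hβ3. With the 16 libraries 22 fell in pMx (11% of all genes), 19 in Δβ3 (5.28%) and 11 in hβ3 (5.17%). The 13 of pMx were all among its 22, while 14 of the 17 in Δβ3 were among its 19. The median change was -0.72 in pMx, -0.77 in Δβ3 and -0.33 in hβ3, and -0.71, -0.70 and -0.31 with the 16 libraries (plot of the change in each line).

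**Figure D3:**
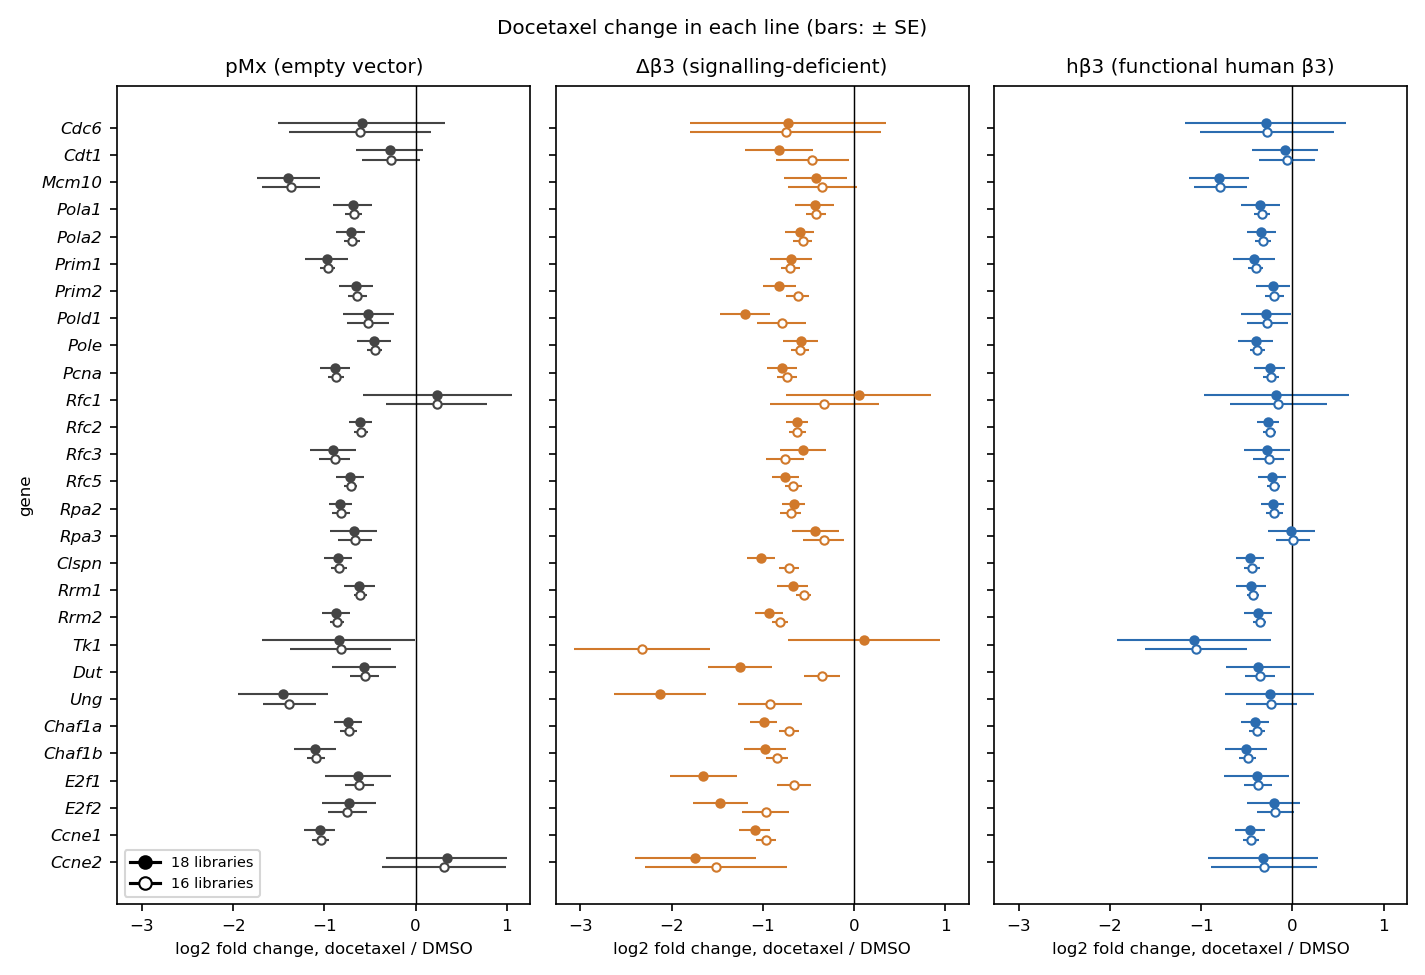
Log2 change in docetaxel against DMSO (x axis) of the 28 tested genes (rows) in each line, with bars of ± SE, from the fit of all 18 libraries (filled) and of the 16 without the 2 Δβ3 libraries rich in heart muscle transcripts (open). Points lie left of 0 for 25 of 28 genes in all 3 lines. They lie farthest right in hβ3 for 24 of 28 with 18 libraries, an order not counted over all genes.

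The number called in pMx was 5 without its docetaxel culture 3, 6 without its DMSO culture 3 or its docetaxel culture 1 or 2, 7 without its DMSO culture 2, and 18 without Δβ3 DMSO culture 1. The share of all genes called in either direction moved with it, from 3.62% with 18 libraries to between 1.2% and 1.6% in the first 5 of these fits and 7.44% in the last. In hβ3 the number was 5 without Δβ3 docetaxel culture 2, where 4.45% of all genes were called, against 1.16% with 18 libraries. A fit of the 2 Δβ3 groups alone called 0 of the 26 members tested there, and 0 genes of all. A fit of the pMx groups alone called 20 of 24 (20.6% of all genes, in either direction), and one of the hβ3 groups alone called 11 of 26 (13.2%). The CPM ranges of the 3 DMSO and the 3 docetaxel cultures were separate, with docetaxel lower, for 22 of the 28 in pMx (17.7% of all tested genes), 18 in Δβ3 (8.99%) and 17 in hβ3 (14.1%). In all 3 lines at once this held for 11 genes (3.32%): Pola2, Rfc2, Rfc5, Clspn, Rrm1, Rrm2, Dut, Chaf1a, Chaf1b, E2f1 and Ccne1. Of the 3 lines hβ3 had the highest log2 change for 24 of 28 genes with 18 libraries and for 23 with 16. This was mostly the smallest fall. The order of the lines was not counted over all tested genes, so these counts have no share beside them.

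Whether the fall itself differed between lines was tested as the difference of the log2 changes. With all 18 libraries no gene of the 28 was called for hβ3 minus pMx (0.0165% of all genes were called in either direction); 5 had an unadjusted p under 0.05 and DESeq2 called 0. With the 16 libraries 7 were called, all with a smaller fall in hβ3, where 1.25% of all genes were called in that direction, and 16 had an unadjusted p under 0.05. The same 7 were called when only the 4 pMx and hβ3 groups were fitted, which holds no Δβ3 library, where 1.83% of all genes were called in either direction. In the libraries of this comparison the summed heart muscle markers ran from 271.8 to 2812 CPM in pMx and from 219.6 to 878 in hβ3, and Rn45s, the precursor of ribosomal RNA, took 6.59% to 9.81% of counts in pMx and 10.9% to 33.0% in hβ3; their part in the difference was not tested. The 7 genes serve priming, the clamp and its loader, single-strand binding, deoxynucleotide supply, nucleosome assembly and cyclin E.

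Pcna had the largest of these differences, at 0.64 ± 0.12 (SE; adjusted p = 0.00398), from a change of -0.88 ± 0.09 in pMx and -0.23 ± 0.08 in hβ3. Rpa2 differed by 0.62 ± 0.14 (adjusted p = 0.014) and Chaf1b by 0.60 ± 0.14 (adjusted p = 0.0177). Ccne1 differed by 0.59 ± 0.12 (adjusted p = 0.0104), with a change of -1.04 ± 0.09 in pMx and -0.45 ± 0.09 in hβ3. Prim1, outside the first naming rule but called here, read 87.4, 94.96 and 94.3 CPM in pMx DMSO and 44.1, 47.5 and 48.9 in pMx docetaxel, against 86.9, 95.8 and 85.8 and 64.9, 74.1 and 62.3 in hβ3. Its treatments were separate in both lines, its hβ3 docetaxel cultures were all above the pMx ones, and the difference was 0.57 ± 0.12 (adjusted p = 0.00838). Rfc5 read 131, 143 and 138 CPM in pMx DMSO and 81.0, 85.3 and 83.7 in pMx docetaxel, against 125, 115 and 109 and 96.5, 102 and 101 in hβ3. It too was separate by treatment in both lines, and it differed by 0.51 ± 0.10 (adjusted p = 0.0083). Rrm2 differed by 0.50 ± 0.10 (adjusted p = 0.00748), and since its level in hβ3 DMSO was the highest, its hβ3 docetaxel cultures read about as much as DMSO cultures of the other lines (plot of the 7 genes by culture).

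**Figure D4:**
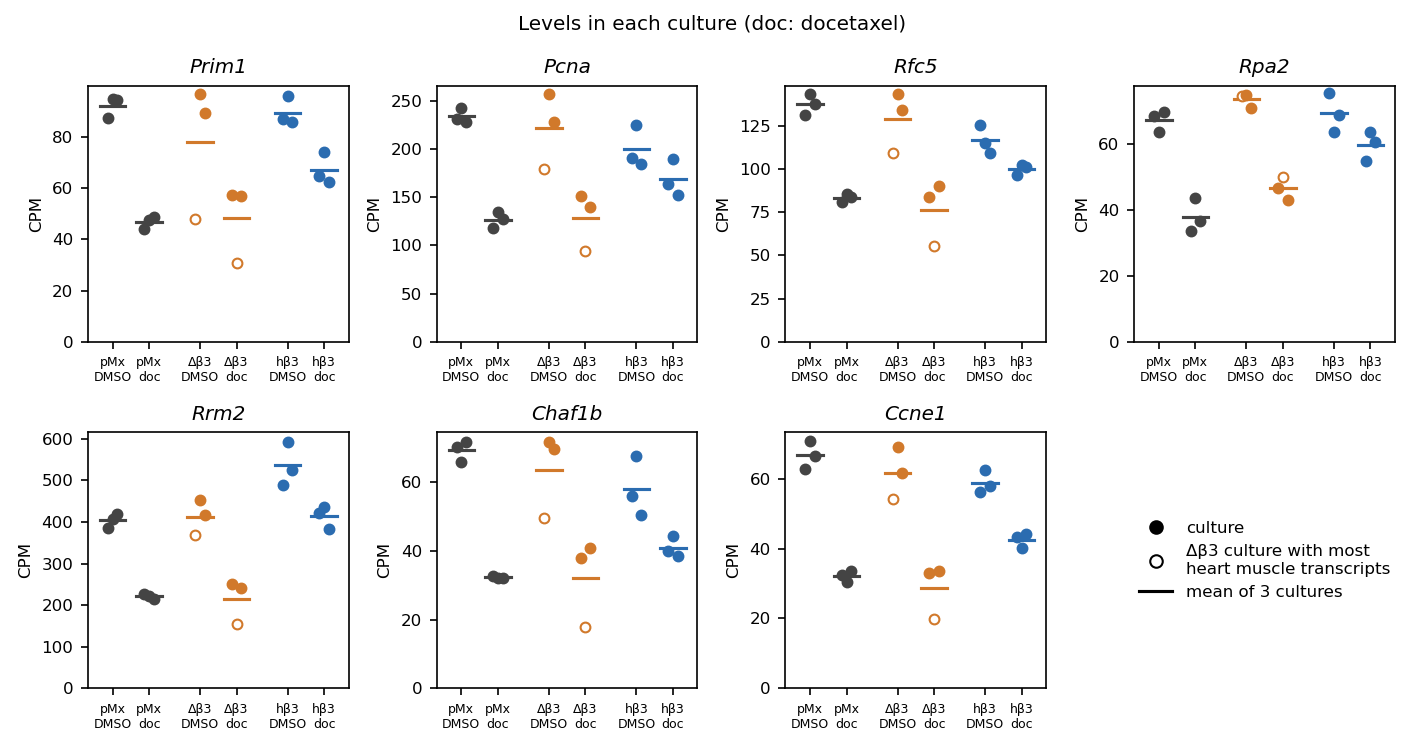
CPM (y axis, from 0) of the 7 genes whose docetaxel response differed between hβ3 and pMx with 16 libraries, in each culture of the 6 groups, with a line at the mean of 3 cultures and open points for the 2 Δβ3 libraries rich in heart muscle transcripts. In each gene the hβ3 docetaxel cultures lie above the pMx docetaxel cultures, while for Rrm2 the hβ3 DMSO cultures are also the highest of the DMSO cultures.

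The neighbours of these genes gave smaller or less certain differences. Rrm1, the large partner of Rrm2, differed by 0.17 ± 0.09 (adjusted p = 0.398) and Pole by 0.06 ± 0.12 (adjusted p = 0.858). Ung had the largest estimate, 1.16 ± 0.41 (adjusted p = 0.146), at under 5 CPM in every pMx and hβ3 culture. For hβ3 minus Δβ3 no gene of the 28 was called with 18 or 16 libraries (0.0412% and 0.591% of all genes). Of the 28, 12 and 11 had an unadjusted p under 0.05, and DESeq2 called 0. Differences above 0 numbered 25 and 26, with a median of 0.50 and 0.38. Shares of all genes at an unadjusted p or above 0 were not counted, so these counts describe the 28 only. The smallest adjusted p with 16 libraries was that of Rrm2, which differed by 0.46 ± 0.11 (adjusted p = 0.0695). For Δβ3 minus pMx no gene was called either, among the 28 or among all genes (0%), with 1 and 0 of the 28 at an unadjusted p under 0.05 and 0 called by DESeq2. These 3 differences share the groups of each line, so they are not independent of each other (plot of the differences in response).

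**Figure D5:**
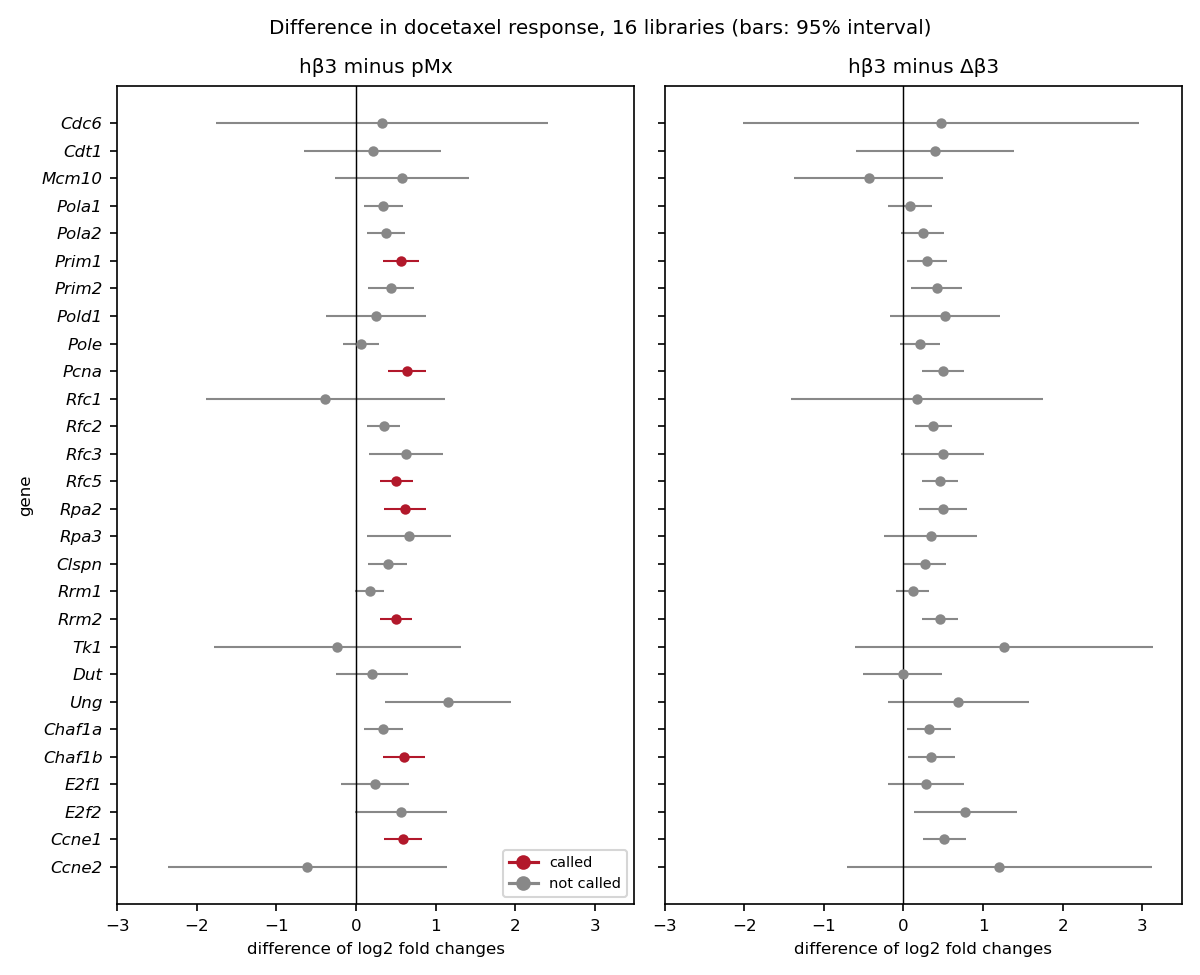
Difference between lines in the log2 change with docetaxel (x axis) for the 28 tested genes (rows) with 16 libraries, as hβ3 minus pMx on the left and hβ3 minus Δβ3 on the right, with bars of the 95% interval. The 7 genes called in the left panel (red) lie between 0.50 and 0.64, and no gene is called in the right panel.

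In DMSO few of these genes were called between lines. With 18 libraries 0 of 28 were called for hβ3 against pMx, where 9.02% of all genes were called in either direction, with 1 at an unadjusted p under 0.05 and 0 called by DESeq2. With the 16 libraries 5 were called, where 26.8% of all genes were: Rrm2 (0.39) and Pola2 (0.24) were higher in hβ3, and Pcna (-0.25), Rfc5 (-0.26) and Chaf1b (-0.28) lower. The share of the 28 was below that of all genes. With only the 2 groups compared, Rrm2 and Rfc5 were called again and Rpa3 was called lower, where 26.3% of all genes were called, while Pcna, Chaf1b and Pola2 were not called. Against Δβ3, 1 of 28 was called with 18 libraries, where 13.1% of all genes were: Dut was lower in hβ3 by -1.15 (adjusted p = 0.0384). Leaving out any one of 12 libraries ended that call. Without Δβ3 DMSO culture 1 and docetaxel culture 2 this was -0.34 (adjusted p = 0.189), and Rrm2 was called higher and Pcna, Rfc5 and Chaf1b lower, where 23.3% of all genes were called. For Δβ3 against pMx 0 of 28 were called in both fits, with 4 and 0 at an unadjusted p under 0.05 and 0 called by DESeq2, where 0.0412% and 0.332% of all genes were called.

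Many of these genes are textbook targets of E2F factors, so the DNA before their starts was searched for E2F motifs (RefSeq promoters, build GRCm38.p6, which held 34 of the 38 genes). In the 250 bases before the start, the motif TTTCCCGC or TTTGGCGC, on either strand, was present in 2 of the 34, Cdc6 and Pola1, or 5.9%, against 1.51% of 27025 gene symbols. A gene with several promoters was counted once, as holding a motif if any of them did. The shorter cores TTCCCGC and TTGGCGC, which lie within those motifs and were added after the first search, were present in 9 of the 34, or 26.5%, against 6.45% of all. Over 300 bases, which reach 50 bases past the start, the cores were present in 16 of the 34 (47.1%, against 7.79%) and the longer motifs in 6 (17.6%, against 1.8%). The 9 with a core before the start were Cdc6, Pola1, Prim1, Rpa2, Rpa3, Rrm1, Chaf1a, Chaf1b and Uhrf1. The CCAAT box, with the letters CCAAT, was in 18 of the 34 (52.9%, against 37.49%) and the CHR motif TTTGAA in 2 (5.9%, against 18.26%). Over the whole 300 bases of the table, which reach past the start, the median GC content was 63.33% for the 34 and 52.75% for all.

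Stretches of 4 of these promoters are shown because they hold a core or several before the start of genes that fell. Letters run 5′ to 3′ along the gene's strand, capitals mark the cores TTCCCGC and TTGGCGC or their reverse complements GCGGGAA and GCGCCAA, and coordinates are of GRCm38.p6. A match is a description of the letters and shows no binding.
Pola1, chrX:93632240-93632354, minus strand: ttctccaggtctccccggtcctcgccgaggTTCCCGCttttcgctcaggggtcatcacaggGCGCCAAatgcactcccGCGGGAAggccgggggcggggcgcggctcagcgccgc
Rrm1, chr7:102441598-102441664, plus strand: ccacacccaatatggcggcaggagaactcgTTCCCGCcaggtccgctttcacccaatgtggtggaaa
Chaf1a, chr17:56040339-56040405, plus strand: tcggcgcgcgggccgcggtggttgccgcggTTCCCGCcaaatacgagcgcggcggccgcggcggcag
Chaf1b, chr16:93883651-93883710, plus strand: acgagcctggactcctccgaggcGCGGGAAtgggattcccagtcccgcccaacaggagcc
The stretch of Pola1 holds 3 cores and those of the other genes 1 each. Of the 7 genes whose fall was smaller in hβ3 than in pMx with 16 libraries, Prim1, Rpa2 and Chaf1b held a core in the 250 bases before the start, and Pcna, Rfc5, Rrm2 and Ccne1 held none.

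Other genes of replication fell as well. Over all tested genes 7.67% fell and 7.9% rose in the mean response, and 14.3% and 15.8% with the 16 libraries. Of 10 tested genes of the replicative helicase, 7 fell in the mean response and 0 rose (8 and 0 with the 16 libraries), with a median of -0.63, among them Mcm2 (-0.72 ± 0.07) and Mcm3 (-0.75 ± 0.08). Of 9 tested genes of licensing and origin firing outside the 38, 2 fell, Topbp1 (-0.50) and Wdhd1 (-0.62), and 5 fell with the 16 libraries. Of 12 further genes of polymerases, clamp loading and Okazaki fragments, 5 fell (7 with the 16 libraries), such as Pold2 (-0.67), a polymerase δ subunit, and Exo1 (-0.75), an exonuclease.

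Of 22 further genes of nucleotide supply 13 fell (15 with the 16 libraries), among them Ctps (-0.59), which makes CTP, and Atic (-0.64), of purine synthesis. Rrm2b, the ribonucleotide reductase subunit known as a p53 target, was the only one that rose, by 0.31 ± 0.10 (adjusted p = 0.0473), opposite to Rrm2. A rise of 1 among the 22 is below the 7.9% of all genes that rose, and Rrm2b was named after its value was seen. Of 9 further genes of chromatin copying 6 fell, such as the histone chaperone Asf1b (-0.59) and the chromatin remodeller Hells (-0.75), and all 9 fell with the 16 libraries.

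Among 26 other G1/S regulators 10 fell and 2 rose, where 7.67% and 7.9% of all genes did. With the 16 libraries 13 fell and 3 rose, where 14.3% and 15.8% of all genes did. The rises were no more frequent than over all genes. Mybl2 (-1.08 ± 0.07), a transcription factor of cycling cells, and E2f4 (-0.52), an E2F factor of repressor complexes, fell. Cdkn1a, the CDK inhibitor p21, rose by 0.88 ± 0.20 (adjusted p = 0.00578), and Rb1, the retinoblastoma protein that holds activating E2F factors, by 0.85 ± 0.13 (adjusted p = 0.00032). Of 29 tested genes of G2/M and mitosis 4 fell and 0 rose, where 7.67% and 7.9% of all genes did. Their median was -0.11, and Aurkb (-0.65) and Birc5 (-0.42) were among those that fell. The mitotic cyclin gene Ccnb1 stood at -0.11 ± 0.13 (adjusted p = 0.631) and the proliferation marker Mki67 at -0.16 ± 0.12 (adjusted p = 0.414), or -0.15 (adjusted p = 0.0496) with the 16 libraries. With the 16 libraries 9 of the 29 fell and 4 rose, where 14.3% and 15.8% of all genes did.

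For hβ3 minus pMx with the 16 libraries, 5 of the 10 helicase genes were called with a smaller fall in hβ3 (Mcm2, Mcm3, Mcm4, Mcm7 and Gins2), where 1.25% of all genes were called higher. The differences ran from 0.43 for Mcm3 to 0.66 for Gins2. For hβ3 minus Δβ3 with the 16 libraries, 4 of these helicase genes were called as well, where 0.283% of all genes were called higher, with differences from 0.43 for Mcm3 to 0.49 for Mcm2. Of the other lists, for hβ3 minus pMx with the 16 libraries, 5 of 22 nucleotide genes, 3 of 9 chromatin genes, 2 of 12 polymerase genes and 0 of 9 licensing genes were called higher and none lower. Of the 26 other G1/S regulators 1 was called higher, Lin52 at 0.74, and 1 lower, Cdk6 at -0.42. Among the 29 genes of G2/M and mitosis 0 were called higher and 2 lower, where 1.05% of all genes were called lower: Cenpf at -0.45 and Mki67 at -0.51. No gene of these lists was called for hβ3 minus pMx or for hβ3 minus Δβ3 with all 18 libraries.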

How the data were processed

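RNA from 18 cultures was read as single 50-base reads after removal of ribosomal RNA and priming with random hexamers, per the labels' protocols. The authors deposited raw counts of reads per transcript model, and the submitters' processing notes name FastQC, HISAT2, featureCounts and the mouse build mm10. The sources used here give no versions, annotation or strand setting, and do not say how a read that fits several models was treated. Counts of the 63759 models were summed over each of 32699 symbols.

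Tests used edgeR 4.0.16 in R 4.3.3: filterByExpr over the 6 groups, TMM scaling and the robust quasi-likelihood F-test, two-sided, with a coefficient per group over 18 libraries. Calls were made at an adjusted p under 0.05 (Benjamini-Hochberg, over all tested genes). The SE of a log2 change is its size divided by the square root of F. The test was first run on simulated data with known changes, for the mean response. It recovered 58.6% of 99 genes with a log2 change of 1 in either direction and 93.9% of 99 with a change of 2. It called 7 of 11681 unchanged genes. Smaller changes were not simulated. The lowest chi-square per degree of freedom between 2 cultures of a group was 3.9 over 18 pairs, so no 2 cultures of a group were counted as 1, and pairs across groups were not compared. Positions are of GENCODE M21 on mm10, and promoters are RefSeq's on GRCm38.p6.

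The members, the lists of other genes and the markers were chosen with earlier results of these data known. Values in every culture are given for the 2 tested members of each role group with the smallest p for the mean response, for members called in a difference of response (here with 16 libraries), for the 3 smallest p among those called between lines in DMSO, and for members called higher. In each list of other genes the 2 with the smallest p are named, and Cdkn1a, Ccnb1 and Mki67 always; other named genes were chosen after their values were seen. Alternatives were RLE factors, DESeq2 1.42.0, no filter or at least 2 CPM in 3 libraries, 16 libraries, a replicate block, only the groups compared, only the model with most counts, Rn45s left out, and leaving out each library.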

Additional observations from a re-analysis of the deposited data

Results flagged for a closer look

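A difference in docetaxel response between the hβ3 and pMx lines was called for 7 genes in the fit of 16 libraries, by the test of the difference itself (edgeR's quasi-likelihood test with Benjamini-Hochberg adjustment). The fall was smaller in hβ3 for each. The difference of the log2 changes was 0.57 for Prim1 (adjusted p = 0.00838), 0.64 for Pcna (adjusted p = 0.00398), 0.51 for Rfc5 (adjusted p = 0.0083), 0.62 for Rpa2 (adjusted p = 0.014), 0.50 for Rrm2 (adjusted p = 0.00748), 0.60 for Chaf1b (adjusted p = 0.0177) and 0.59 for Ccne1 (adjusted p = 0.0104). None of the 7 was called with all 18 libraries. The 3 cultures of a group are too few for a search for single cultures that stand apart.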

How the results depend on the processing

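Percentages here are the share of all genes called in the same fit, in either direction. The 22 falls of the mean response (15.6%) numbered 21 (only the model with most counts, 15.7%) to 24 (16 libraries, 30.1%) over the alternatives. They numbered 22 to 23 when 1 library was left out (11.2% to 21.2%), where the median ran from -0.65 to -0.57. In those fits the share ran from 1.2% to 9.69% in pMx, 4.58% to 13.3% in Δβ3 and 0.49% to 4.45% in hβ3. It ran from 0.0158% to 0.169% for hβ3 minus pMx. In DMSO it ran from 5.52% to 15.8% for hβ3 against pMx and 7.6% to 23% against Δβ3. The number of members called in pMx was 13 (3.62%), and 22 (21.3%) with 16 libraries, 20 (20.6%) with only the groups compared, and 5 to 18 when 1 library was left out. In Δβ3 it was 17 (6.87%), and 0 (0%) with only the groups compared, and 14 to 18 when 1 library was left out. In hβ3 it was 0 (1.16%), and 1 (3.06%) by DESeq2, 11 (12.5%) with 16 libraries, 11 (13.2%) with only the groups compared and 0 to 5 when 1 library was left out. For hβ3 minus pMx it was 0 (0.0165%), and 7 (2.3%) with 16 libraries, 7 (1.83%) with only the groups compared, and 0 whenever 1 library was left out. In DMSO, hβ3 against pMx gave 0 (9.02%), and 5 (26.8%) with 16 libraries, 3 (26.3%) with only the groups compared and 0 to 1 when 1 library was left out. Against Δβ3 in DMSO it was 1 (13.1%), and 2 (13.3%) with RLE factors, 4 (17%) by DESeq2, 2 (18%) with at least 2 CPM in 3 libraries, 4 (23.3%) with 16 libraries, 0 (7.79%) with only the groups compared, 0 (13.4%) with only the model with most counts, 2 (13.7%) with Rn45s left out, and 0 to 5 when 1 library was left out. The cause of these changes was not tested. The median changes when 1 library was left out ran from -0.76 to -0.70 in pMx, -0.93 to -0.65 in Δβ3 and -0.38 to -0.29 in hβ3.

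With a replicate block the counts were 22 (13.8% of all genes, in either direction) for the mean response, 13 (3.15%) in pMx, 15 (4.93%) in Δβ3 and 0 (0.848%) in hβ3. The 1 call between hβ3 and Δβ3 in DMSO became 0 (11.8%). Whether the replicate numbers pair the cultures could not be settled from the counts. Same-numbered libraries of different groups had correlations of their deviations from -0.52 to 0.42 over 45 pairs, with a median of 0.04. Other-numbered libraries had correlations from -0.51 to 0.55 over 90 pairs, with a median of -0.02. Of the 18 libraries 9 were closest to their own number.

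Changes of sign were seen only for genes not called with all 18 libraries. With 16 libraries the log2 change was -0.083 for Rfc1 in the mean response, -0.33 for Rfc1 in Δβ3, 0.0065 for Rpa3 in hβ3 and -2.32 for Tk1 in Δβ3 (0.11 with 18; adjusted p = 0.0442). With the replicate block Tk1 in Δβ3 stood at -0.067, and with only the groups compared Rpa3 in hβ3 at 0.0017. With 1 library left out, Rfc1 ran from -0.20 to 0.24 in the mean response, -0.47 to 0.74 in pMx, -0.49 to 0.66 in Δβ3 and -0.38 to 0.14 in hβ3. Cdc6 ran from -1.13 to 0.56 in pMx, -1.94 to 0.63 in Δβ3 and -0.47 to 0.15 in hβ3, Tk1 from -2.06 to 0.75 in Δβ3, Rpa3 from -0.16 to 0.071 in hβ3, Cdt1 from -0.26 to 0.093 in hβ3, and Ccne2 from -0.44 to 1.03 in pMx. Cdc6, Tk1, Ccne2 and Rfc1 had 107 to 180 counts over all libraries, which limits what their values can show.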
